A study of Mus musculus with 11 samples.

Results

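Of the 2886 Foxp3 peaks of the study, 714 (24.7%) had high-scoring Elf1 and Ets1 positions both in regulatory T (Treg) cells and in T cells without Foxp3. A high score did not always come with a high fold enrichment. At 83 of the 714 peaks the lower bound of fold enrichment was below 1 in at least 1 library. The 714 peaks were chosen by the deposited scores of 5 chromatin immunoprecipitation sequencing (ChIP-seq) libraries. The midpoint of each had to lie within 300 bp of 1 of the 10000 highest-scoring positions in each of 4 lists, Elf1 and Ets1 in Treg cells and Elf1 and Ets1 in CD4 cells. It also had to have none of the 10000 highest-scoring Cbfb positions of Treg cells in that distance. Cells came from lymph nodes and spleen of mice about 8 weeks old and were sorted by green fluorescent protein reporting Foxp3. Treg cells are the Foxp3-positive CD4+ T cells, and CD4 cells the CD4+ T cells negative for Foxp3. The Foxp3 list combined the study's Foxp3 libraries, and each other group used here was 1 library. The labels name no treatment of the mice, and nothing in the sources gave strain, allele or pooling of animals. Elf1 was precipitated with antibody of the same lot in both cell types, and so was Ets1. No marker of cell identity was measured.

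Elf1 and Ets1 belong to the ETS family of transcription factors, which share a DNA-binding domain that recognises a GGAA core. Ets1 is needed for normal T cell development, and Elf1 is abundant in lymphocytes. Foxp3 is a forkhead factor on which the identity of Treg cells depends. Cbfb does not bind DNA itself but stabilises the binding of Runx proteins.

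Positions are given as in the files, in mouse build mm9. A genome sequence and gene annotation of that build were not used here, so peaks are named by coordinates, with no sequence and no gene. Each Foxp3 interval was 200 bp wide and carried no score. The fold enrichment of a position is the authors' own maximum likelihood estimate, given with a lower bound, and describes positions within a list. The number of reads behind each library is unknown. Intervals on shares are exact Clopper-Pearson 95% intervals and cover counting error alone.

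The rule itself gave each of the 714 peaks a top position in all 4 ETS lists. A further 129 Foxp3 peaks also had all 4 but carried a top Cbfb position. Of the Foxp3 peaks without a top Cbfb position, 573 had 3 of the 4 lists, 597 had 2, 396 had 1 and 285 had none. Where 3 lists were present, the missing one was Treg Ets1 at 250 peaks, Treg Elf1 at 161, CD4 Ets1 at 82 and CD4 Elf1 at 80. For each factor the Treg list was thus missing at more of these peaks than the CD4 list. The same held over all 2886 Foxp3 peaks. There 54.4% had a top Treg Elf1 position and 59.2% a top CD4 Elf1 position. For Ets1 the shares were 61.0% in Treg and 70.9% in CD4.

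The 714 peaks were not all separate sites. At 80 of them at least 1 of the 4 ETS positions was also that of another of the 714 peaks, and at 65 all 4 positions were shared in this way. Joining peaks with midpoints at most 600 bp apart left 670 sites. Counts below are over the 714 peaks.

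The limit of the rule cut through a continuous range of ranks. The worst of the 4 ranks of a peak, counted from 1 at the highest score, ran from 381 to 9994 with a median of 5699. The peaks just inside were chr9:32539506-32539706 with a worst rank of 9994, chr18:61003687-61003887 with 9986 and chr3:95315801-95316001 with 9965. Just outside lay chr9:32307134-32307334 with 10014, chr17:84545311-84545511 with 10020 and chr10:67568060-67568260 with 10023. At the first of these the Treg Ets1 position had rank 10014 and a 4.28-fold enrichment, while the other 3 libraries ranked between 3561 and 7618. The distance limit was reached as well, with 53 peaks that had a chosen position over 250 bp from the midpoint. At a limit of 5000 for all 4 ranks 291 of the 714 peaks would remain, and at 1000 only 11.

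Elf1 was enriched more than Ets1 at these peaks, and each factor was enriched less in Treg than in CD4. The median fold enrichment was 17.1 for Treg Elf1, with the middle 50% of peaks from 10.1 to 28.5, and 19.7 for CD4 Elf1, from 12.3 to 35.6. It was 6.79 for Treg Ets1, from 4.46 to 10.8, and 10.9 for CD4 Ets1, from 7.01 to 16.8. With 1 library per group, binding, depth and control cannot be told apart in these differences. In the remainder of each top list, away from the 714 peaks, the medians were 12.9, 15.4, 5.99 and 8.23 in the same order. Since the members were selected on score, which was related to fold, this contrast is a description.

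**Figure D1:**
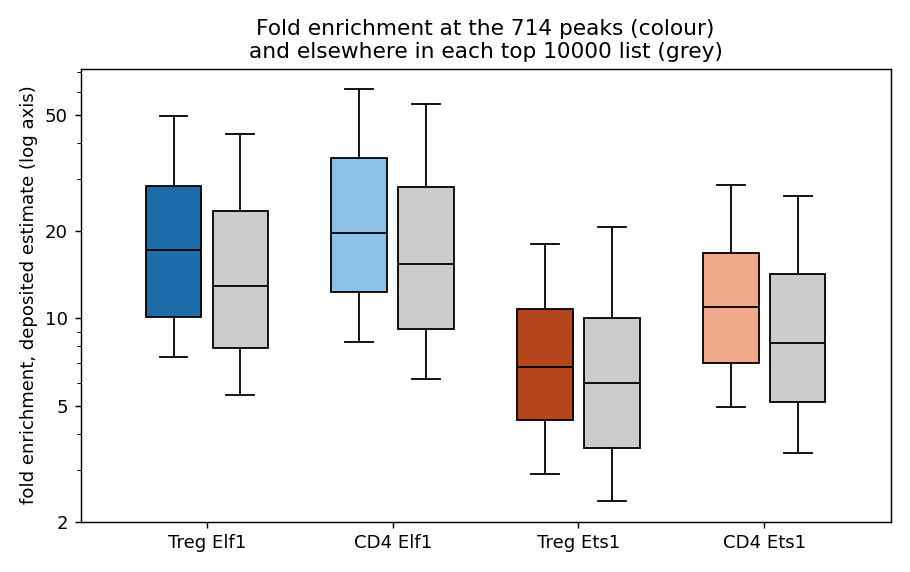
Fold enrichment (log axis) of the highest-scoring position at each of the 714 Foxp3 peaks in colour, and of the other positions of the same top 10000 list in grey. Boxes span the middle 50% with the median as a line, whiskers run from the 10th to the 90th percentile, and the Treg Ets1 boxes lie lowest.

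By fold enrichment the Treg Ets1 library had the weakest values. Its fold enrichment was under 4 at 135 peaks (18.9%), against 31 for CD4 Ets1, 8 for Treg Elf1 and 7 for CD4 Elf1. Low values were not particular to the 714 peaks. In the rest of the Treg Ets1 list the 25th percentile was 3.60, against 4.46 at the members. At 5 peaks the Treg Ets1 estimate was below 1 in spite of a score among the 10000 highest. The lower bound was below 1 at 77 peaks in Treg Ets1 (10.8%) and at 2 or 3 peaks in each other library. The share with such bounds in the rest of each list was not computed. By rank Treg Ets1 was not the weakest throughout. It gave the worst of the 4 ranks most often, at 225 peaks, but also the best rank at 197. The best rank came from CD4 Ets1 at 233 peaks, Treg Elf1 at 170 and CD4 Elf1 at 114. Ranks in the first 5000 were held by 556 peaks for Treg Ets1, 564 for CD4 Ets1, 531 for Treg Elf1 and 511 for CD4 Elf1.

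The 10 peaks with the best worst rank were ranked in the first 970 in each of the 4 libraries. At the first of them, chr8:87502661-87502861, fold enrichment was 23.3 for Treg Elf1, 34.3 for CD4 Elf1, 12.9 for Treg Ets1 and 15.8 for CD4 Ets1. At chr6:48504670-48504870 the same values were 62.8, 70.6, 9.99 and 28.9. At chr6:117850242-117850442 they were 18.9, 41.0, 14.0 and 12.5. Among these 3 peaks the Treg Elf1 values ran from 18.9 to 62.8, and the CD4 Elf1 values from 34.3 to 70.6.

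At chr1:173318970-173319170 the values, in the order Treg Elf1, CD4 Elf1, Treg Ets1 and CD4 Ets1, were 19.3, 18.9, 7.59 and 17.9. The peak chr2:71652154-71652354 had 55.3, 81.8, 65.9 and 19.2, with a Treg Ets1 value above that of CD4. At chr5:141093786-141093986 they were 21.6, 19.5, 15.7 and 25.1, and the 4 libraries lay close together. The highest Elf1 values of the 10 belonged to chr11:101303464-101303664, with 98.7, 185, 45.9 and 45.7.

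The last 3 of the 10 were chr1:194999487-194999687 with 14.1, 24.3, 7.44 and 14.7, chr3:96361723-96361923 with 21.5, 24.1, 34.8 and 38.0, and chr17:36016590-36016790 with 15.8, 37.0, 5.99 and 8.06. At chr3:96361723-96361923 both Ets1 values exceeded both Elf1 values, which happened at no other of the 10. CD4 Elf1 exceeded Treg Elf1 at 8 of the 10 peaks, and CD4 Ets1 exceeded Treg Ets1 at 7.

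**Figure D2:**
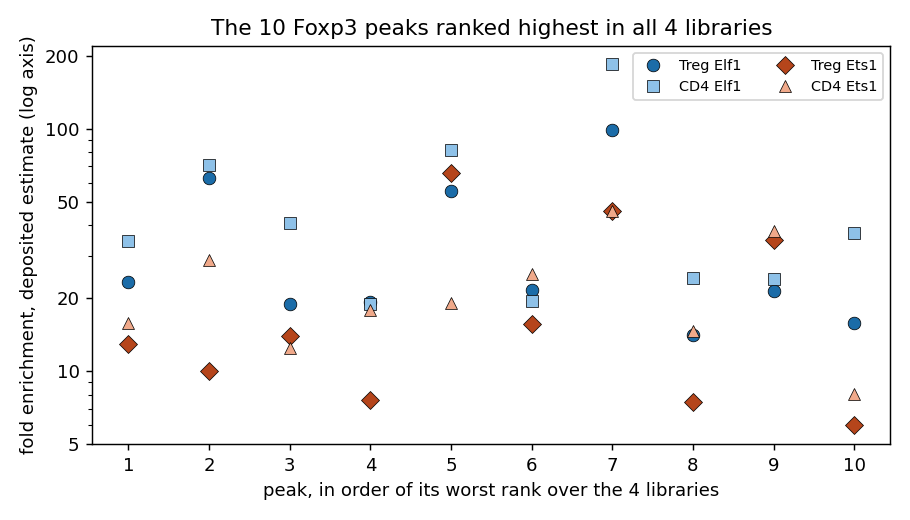
Fold enrichment (log axis) in the 4 libraries at the 10 Foxp3 peaks with the best worst rank, in that order from 1, the peak on chromosome 8, to 10. Points are single deposited values, and the seventh peak reaches 185 for CD4 Elf1.

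The ranking of the 714 peaks was shared mostly by libraries of the same factor. Between Treg and CD4 the Spearman correlation of ranks was 0.70 for Elf1 and 0.36 for Ets1. Between the factors it was 0.10 in Treg and 0.26 in CD4. Peaks ranked high for Elf1 in one cell type thus tended to rank high for Elf1 in the other. By fold enrichment the correlations were 0.74 for Elf1 and 0.58 for Ets1 between the cell types, and 0.37 in Treg and 0.45 in CD4 between the factors. These correlations run over 714 peaks that all passed the same rank limit in each library, so they describe a truncated range. Score and fold enrichment were themselves only partly related, with correlations of 0.58 for Treg Elf1, 0.37 for Treg Ets1, 0.67 for CD4 Elf1 and 0.42 for CD4 Ets1.

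The rule limited the ETS positions to 300 bp from the Foxp3 midpoint, so their distances are a description. The median distance was 41.5 bp for CD4 Elf1, 45 bp for CD4 Ets1, 46 bp for Treg Elf1 and 61 bp for Treg Ets1. Positions fell inside the 200 bp Foxp3 interval at 85.3% of peaks for CD4 Elf1, 77.0% for CD4 Ets1, 78.7% for Treg Elf1 and 70.2% for Treg Ets1. All 4 lay inside it at 352 peaks (49.3%, 45.6 to 53.0), and at 25 peaks none did. For each library the median signed distance was between -2 and -1 bp by genomic coordinate.

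For 3 of the 4 libraries the median distances were close to those at other Foxp3 peaks. Foxp3 peaks with a top position of the same library that were not among the 714 had medians of 41 bp for CD4 Elf1, 44 bp for CD4 Ets1 and 60 bp for Treg Ets1. For Treg Elf1 the median was 59 bp in those other peaks, and 73.4% (70.3 to 76.3) had the position inside the interval, against 78.7% (75.5 to 81.7) of the 714. For CD4 Ets1 the share inside was instead higher in the other peaks, with 80.5% (78.3 to 82.6) against 77.0% (73.8 to 80.1) of the 714. It was 72.4% against 70.2% for Treg Ets1, and 83.8% against 85.3% for CD4 Elf1. In each library these intervals overlap, and no test was run.

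**Figure D3:**
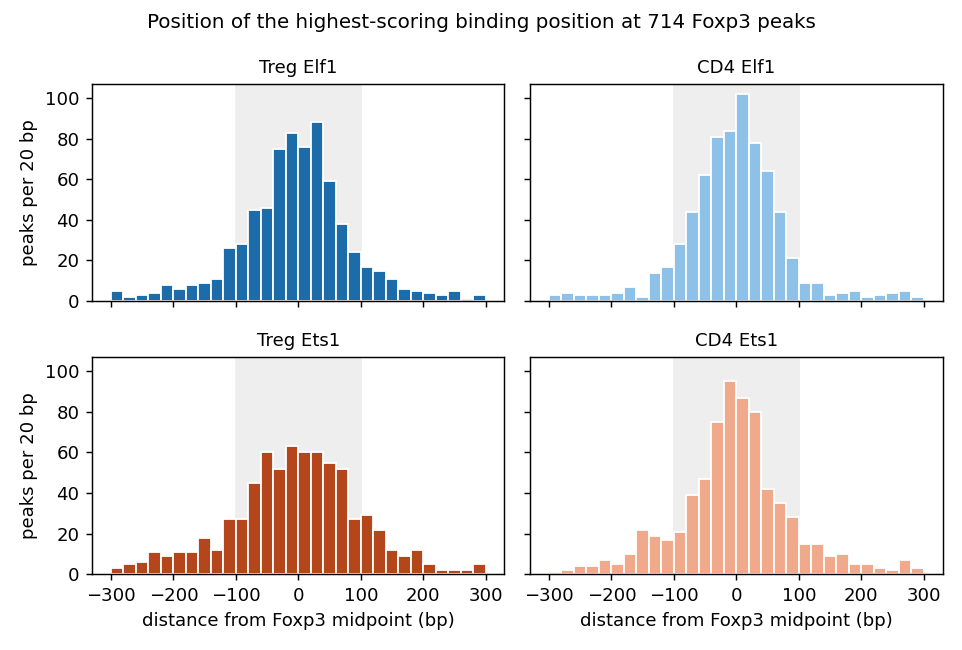
Signed distance (bp) from the Foxp3 midpoint to the highest-scoring position of each library, as the number of peaks per 20 bp, with the 200 bp Foxp3 interval shaded. The histograms are centred near 0, and Treg Ets1 is the broadest, with 70.2% of peaks inside the interval.

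Positions of the same factor in the 2 cell types were not always the closest pairs. Treg and CD4 Elf1 positions were a median of 28 bp apart, and within 20 bp at 278 peaks (38.9%). Treg and CD4 Ets1 positions were 54 bp apart, and within 20 bp at 150 peaks (21.0%). In CD4 cells Elf1 and Ets1 lay a median of 47 bp apart, and within 20 bp at 204 peaks (28.6%). In Treg cells they lay 71 bp apart, and within 20 bp at 116 peaks (16.2%). The 3 pairs with Treg Ets1 had medians of 54, 65 and 71 bp, while the 3 without it had 28, 47 and 55 bp.

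The span from the first to the last of the 4 positions, also limited by the rule, had a median of 111 bp. It was at most 50 bp at 92 peaks (12.9%). The shortest spans were 8 bp at chr17:33084280-33084480, 13 bp at chr19:53499176-53499376 and 14 bp at chr9:58119010-58119210. At the first, fold enrichment was 12.2 for Treg Elf1, 15.8 for CD4 Elf1, 4.90 for Treg Ets1 and 7.75 for CD4 Ets1, all between 47 and 55 bp to one side of the Foxp3 midpoint. All 4 positions lay on one side of the midpoint at 253 peaks (35.4%, 31.9 to 39.1). With the peaks split into 4 equal groups by worst rank, the median span was 92 bp in the best group and between 118 and 122 bp in the other 3. The distance from the midpoint to the mean of the 4 positions showed no such step, with medians from 34.9 to 41.8 bp.

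ETS enrichment at these sites was also compared between Treg and CD4 cells. These cells can differ in more than Foxp3, and the design cannot tell such differences apart. The median Treg minus CD4 log2 fold enrichment was -0.24 for Elf1 (SD over peaks 0.81) and -0.67 for Ets1 (SD 0.99). Over all positions common to the Treg and CD4 top lists of the same factor, the medians were -0.32 for Elf1 and -0.51 for Ets1. Each common position was a Treg top position paired with the best ranked CD4 top position within 300 bp of it. At the 714 peaks both positions were instead taken within 300 bp of the Foxp3 midpoint, so the pairings differ. Positions at the 714 peaks were not left out of the common ones. Elf1 was lower in Treg at most of the 714 peaks, and higher at 251 (35.2%), beside 32.0% of the common Elf1 positions. Ets1 was higher in Treg at 152 (21.3%), beside 26.2% of the common Ets1 positions. Both were lower at 357 peaks and both higher at 46, while Elf1 was higher and Ets1 lower at 205, and the reverse at 106. These joint counts have no background, since common positions were taken for each factor alone, so nothing is read from them.

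At least 2-fold differences were a minority for both factors. For Elf1, 105 peaks (14.7%) were at least 2-fold lower in Treg, beside a background of 16.8% of the 6605 common Elf1 positions, and 36 (5.04%) at least 2-fold higher, beside 4.91%. For Ets1, 248 peaks (34.7%) were lower, beside 28.7% of 4985 common positions, and 24 (3.36%) were higher, beside 5.14%. The lower bounds gave fewer. The CD4 lower bound exceeded the Treg estimate at 49 peaks for Elf1 (6.86%, background 7.16%) and at 141 for Ets1 (19.7%, background 15.2%). The Treg lower bound exceeded the CD4 estimate at 10 peaks for Elf1 (1.40%, background 1.12%) and at 5 for Ets1 (0.70%, background 1.02%). The rule used the scores of both libraries and the backgrounds were paired differently, so nothing is read from these counts against their backgrounds.

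The shifts of the 2 factors did not follow each other over the peaks. The Spearman correlation of the Elf1 and Ets1 log2 ratios was -0.04 over 714 peaks, and -0.01 with lower bounds. Among 32 pairs of neighbouring members that lay over 600 bp apart in 1 cluster, the ratios of the 2 neighbours had correlations of -0.07 for Elf1 and -0.10 for Ets1.

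**Figure D4:**
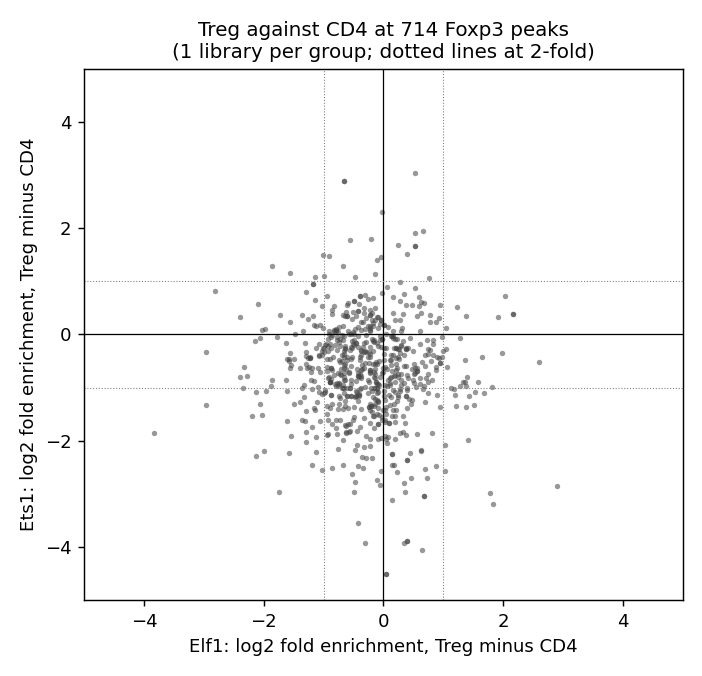
Treg minus CD4 log2 fold enrichment of Elf1 (x axis) and Ets1 (y axis), 1 point per Foxp3 peak, with dotted lines at 2-fold. Most points lie below 0 for Ets1, and 357 of 714 lie below 0 on both axes, a count without a background.

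The most Treg-biased Elf1 values came with wide limits. At chr15:61996430-61996630 Elf1 was 95.4-fold enriched in Treg (lower bound 17.0) and 12.7-fold in CD4 (3.30), while Ets1 went the other way, with 16.6-fold in Treg and 120-fold in CD4. At chr17:47668524-47668724 Elf1 was 66.1-fold in Treg (11.3) and 10.9-fold in CD4 (4.57). At chr9:68882422-68882622 it was 8.97-fold (3.48) and 2.01-fold (0.829). In all 3 the Treg lower bound exceeded the CD4 estimate of the position taken. The Treg and CD4 positions were 43, 154 and 110 bp apart, in the same order of peaks.

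Toward CD4, the largest Elf1 differences were at chr16:94748106-94748306, with 21.5-fold in Treg and 306-fold in CD4 (lower bound 58.1). At chr16:32130342-32130542 the values were 32.5-fold and 253-fold (47.9), and Ets1 was also lower in Treg there, with 41.9-fold against 106-fold in CD4. At chr2:48804837-48805037 Elf1 was 13.9-fold and 108-fold (33.1). The CD4 lower bounds lay above the Treg estimates of the positions taken at all 3. At chr16:94748106-94748306 the difference depends on the position taken: the better ranked Treg position was 225 bp from the CD4 position, and a second one within 300 bp of the midpoint had 198-fold enrichment.

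For Ets1 the most Treg-biased peak was chr3:96368630-96368830, with 23.3-fold enrichment in Treg (lower bound 6.46) and 2.83-fold in CD4, although the CD4 position ranked 1107 by score. The next, chr11:53114108-53114308, had a 93.9-fold Treg position 271 bp from its midpoint and a 12.7-fold CD4 position. It shares its 4 positions with the neighbouring peak chr11:53113882-53114082, which is the third. These 3 peaks stand for 2 sites. At the chr11 site the Treg position taken was 257 bp from the CD4 position, and a second Treg position there had 6.72-fold enrichment, below the CD4 value.

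Toward CD4, chr10:13702766-13702966 and chr10:13703011-13703211 also shared their 4 positions. Ets1 there was 0.461-fold in Treg (lower bound 0.0302) and 10.4-fold in CD4, while Elf1 was almost the same at 11.3-fold and 10.9-fold. The Treg Ets1 position ranked 3247 by score in spite of the estimate below 1, so score and fold disagree at this site. At chr8:84306794-84306994 Ets1 was 3.60-fold in Treg and 59.5-fold in CD4, with a CD4 lower bound of 10.8, at positions 137 bp apart.

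Lower-ranked Cbfb positions lay at some of the peaks. At an FDR of at most 0.01, 157 of the 714 peaks (22.0%, 19.0 to 25.2) had a Cbfb position within 300 bp. Its fold enrichment there had a median of 3.66 and fell as low as 0.290, beside a median of 4.11 over all deposited Cbfb positions. Its ranks ran from 10214 to 121597 among 161760 positions, so the FDR limit also let in weak positions. Among the 1851 other Foxp3 peaks without a top Cbfb position the share was 18.0% (16.3 to 19.9). It was 10.9% (7.51 to 15.1) where no ETS list was present, 15.4% with 1 list, 21.6% with 2 and 19.7% with 3. The share was thus lowest where no top ETS position lay, and differed little between 2 and 4 lists. These shares come from 1 Cbfb library and were not tested.

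**Figure D5:**
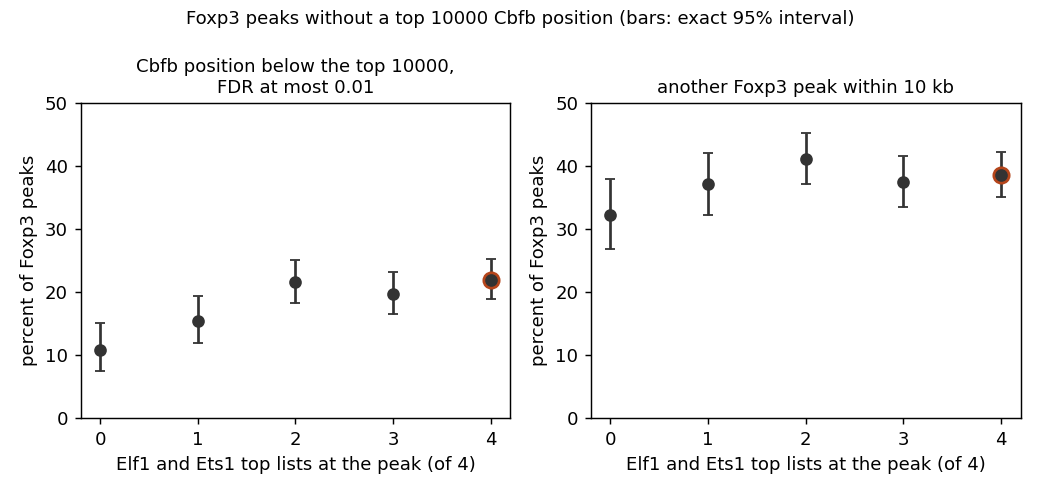
Share of Foxp3 peaks without a top 10000 Cbfb position that had a lower-ranked Cbfb position (left) or another Foxp3 peak within 10 kb (right), by the number of ETS top lists at the peak. Bars are exact 95% intervals, and the larger coloured point is the 714 peaks. The left panel goes from 10.9% with no list to 21.6% with 2, 19.7% with 3 and 22.0% with 4.

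The peaks were clustered about as often as other Foxp3 peaks. Another Foxp3 peak lay within 10 kb of 276 of them (38.7%, 35.1 to 42.3), against 37.8% (35.6 to 40.1) of the 1851 others without a top Cbfb position. The remaining 438 stood alone. Another of the 714 was in the same cluster for 140 peaks, and 136 had other Foxp3 peaks only. At most 3 members shared a cluster, which happened in 12 clusters. Of these, the one with the most Foxp3 peaks spanned chr6:48668562-48696202 and held 8.

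In that cluster 3 of the 8 Foxp3 peaks had all 4 ETS lists and no top Cbfb position. At chr6:48677798-48677998 fold enrichment was 29.6 for Treg Elf1, 22.6 for CD4 Elf1, 9.99 for Treg Ets1 and 20.2 for CD4 Ets1. The peaks chr6:48688770-48688970 and chr6:48688898-48689098 shared 1 set of positions, with 7.88, 17.9, 14.6 and 7.53. By the estimates the directions were opposite. At the first site Elf1 was higher and Ets1 lower in Treg, and at the second the reverse held. The lower bounds did not separate the cell types. Those of the higher values were 13.1 for Elf1 and 7.26 for Ets1 at the first site, below the other estimate. At the second they were 7.82 and 5.61, also below it. Of the other 5 peaks, 2 had 3 lists, 1 of them with a top Cbfb position, and the others had 2, 1 and 0.

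Further top ETS positions were about as frequent around the peaks as around the other Foxp3 peaks without a top Cbfb position as a whole. Between 300 bp and 5 kb from the midpoint, a further top 10000 position was found at 30.7% of the 714 peaks for Treg Elf1, 36.3% for Treg Ets1, 31.9% for CD4 Elf1 and 37.1% for CD4 Ets1. At the 1851 others the shares were 33.7, 37.9, 33.7 and 38.2%. For peaks with no other Foxp3 peak within 10 kb they were 17.1, 23.5, 19.9 and 23.5% at 438 members and 21.7, 22.7, 21.3 and 22.0% at 1151 others. At the 193 of these others that had none of the 4 ETS lists, they were 18.7, 19.7, 15.0 and 13.5%. The exact 95% intervals of that last set and of the members overlapped except for CD4 Ets1 (8.99 to 19.1% and 19.6 to 27.8%). The same lists defined the sets, so nothing is read from this, and no difference was tested.

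The 714 peaks were spread over all numbered chromosomes. Their share of the Foxp3 peaks of a chromosome ran from 17.0% on chromosome 12 (11.1 to 24.5) to 29.8% on chromosome 4 (23.0 to 37.3), and these intervals overlap. Chromosome 11 held the most, with 70 of its 248 Foxp3 peaks. None of the 22 Foxp3 peaks on chromosome X belonged to the group. With none found, an approximate 95% upper limit of 3 counts allows a share of up to 13.6%, and the exact 95% interval reaches 15.4%. Both lie below the 24.7% over all Foxp3 peaks, and the difference was not tested.

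Sites where all 4 lists met, with no top Cbfb position, were also common away from Foxp3. Seen from the positions of each list, between 2020 and 2062 had the other 3 lists within 300 bp, and between 34.4 and 35.3% of them had a Foxp3 midpoint within 300 bp. Over all 10000 positions of a list that share was 15.6% for Treg Elf1, 17.5% for Treg Ets1, 16.4% for CD4 Elf1 and 20.2% for CD4 Ets1. The sets were not matched on score, and the part of score in this difference was not tested.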

How the data were processed

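Binding of Foxp3, Elf1, Ets1 and Cbfb was measured by ChIP-seq. Reads were aligned with Bowtie 0.12.7 to mm9, per the submitters' processing notes. The deposited Foxp3 list gives intervals from combined replicates, per the labels. Per the file headers, each of the other deposited lists holds single-base positions with a score, a fold enrichment (a ratio) as lower bound and estimate, and an FDR or q-value. The caller, thresholds, control and depth are not given in the sources used here. For each library the 10000 highest scores were taken, ties in file order, and at a peak the highest score within 300 bp was used. With 1 library per group no test was run. The member search was checked on simulated lists. Calculations used Python 3.11.15, numpy 2.4.6, pandas 2.3.3, scipy 1.17.1 and matplotlib 3.10.9.

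The members, the lists and the comparisons were chosen with earlier results of these data known. Peaks named in the text are the 10 with the best worst rank, the 3 with the largest and smallest Treg minus CD4 ratio for each factor, the 3 nearest the rank limit on each side, the 3 with the shortest span, and the cluster with the most members, ties going to the one with the most Foxp3 peaks, a choice added later. Alternatives were other distances, list lengths and rankings, interval edges, no Cbfb exclusion, a rule without each library, lower bounds, nearest positions and other cluster gaps. Input libraries and CD4 Cbfb were not analysed here.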

Additional observations from a re-analysis of the deposited data

How the results depend on the processing

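The number of members depended mainly on the ranking and on the length of the lists. When fold enrichment set the rank, 69 peaks met the rule, of which 37 were among the 714. With that ranking among positions at an FDR of at most 0.01, 182 did, of which 108 were shared. With 5000 positions per list there were 311, of which 291 were shared. The other settings gave between 630 (within 200 bp) and 1067 (20000 positions per list), each within 1.5 times 714. Leaving 1 library out of the rule gave between 794 (CD4 Elf1) and 964 (Treg Ets1). Keeping or leaving out positions tied at the limit, a choice made after seeing the data, gave 714 both ways. The share of members with a Cbfb position was 30.1% with all deposited positions and 27.3% within 500 bp. The share with another Foxp3 peak nearby was 29.1% within 5 kb and 58.3% within 50 kb, against 29.4 and 58.0% of other Foxp3 peaks without a top Cbfb position. The median log2 ratios kept their sign with lower bounds, at -0.33 for Elf1 and -0.91 for Ets1. Motif shares and distances to gene starts were planned and not run, since they need sequence and annotation of mm9. No paired analysis was possible because each group compared had 1 library. Depth is unknown, so a missing position can reflect depth or binding, which cannot be told apart.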
